A study of Mus musculus with 24 samples.

Results

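The comparison described here asks how far the response of bone marrow-derived macrophages (BMDMs) to DMXAA differed between cells labelled CRE and cells labelled WT. It uses 8 of the 24 RNA-seq libraries of the series, namely the BMDM libraries numbered 1 and 2 in each of 4 groups. DMXAA (Vadimezan) is a small molecule that binds and activates mouse STING, the adaptor protein encoded by Tmem173. The WT-labelled cells came from Tmem173 fl/fl mice, and the CRE-labelled cells from Tmem173 fl/fl mice that also carry a tamoxifen-activated Cre recombinase under the myeloid Lyz2 promoter. Both kinds of mice were on the C57BL/6N background and carried the floxed alleles, so the WT label stands for floxed cells without Cre. The paper describes tamoxifen injections for both kinds, but its account of marrow isolation does not state them for the donors. Marrow was grown into macrophages with L929 cell-conditioned medium and then left untreated (CT) or given DMXAA, at 40 µM by the design text of the series, although the methods state the dose in another unit. The length of the exposure of the sequenced cells, the ages of the mice behind each library and whether the 2 libraries of a group came from separate mice or cultures are not given in the sources used here, so p-values measure only the spread between these samples, which may be technical.

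STING sits on the endoplasmic reticulum and, once engaged, recruits the kinase TBK1, which activates the transcription factor IRF3 and leads to production of type I interferon. Secreted interferon then acts on its receptor and, through JAK kinases, induces a large set of interferon-stimulated genes. STING also activates NF-kB, which drives cytokines, chemokines and its own inhibitors, and activated macrophages commonly reduce proliferation and sterol synthesis.

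For each gene, the interaction is the log2 fold change of DMXAA over CT in CRE-labelled BMDMs minus that in WT-labelled BMDMs, and the share kept is the ratio of these log2 fold changes, so that 1 is an equal response and 0 is none. Values per library are normalised CPM, that is counts scaled to library size with TMM factors. Every group has n = 2, and a gene is called at an adjusted p under 0.05. Errors of log2 values are the size of the log2 fold change divided by the square root of its F statistic in the edgeR test. They are not standard errors of the fit, and the 95% intervals of the interaction, which are built from them, are approximate. The 8 libraries held 16470157 to 18912887 counts over genes, and 11569 genes were tested. The marker values in the rest of this paragraph are an exception, as they are CPM of library totals without TMM scaling. The 10 macrophage markers summed to between 13808 and 23704 CPM, with none at 0 in any of the 8 libraries. The sum was 22778 and 23704 in WT CT and 16143 and 16211 in CRE CT. Lyz2 was at 13620 and 15861 CPM in WT CT and 7086 and 7155 in CRE CT. Cd14 was also lower in CRE CT, at 342 and 333 CPM against 461 and 1052 in WT CT. Cd68 and Itgam were higher in CRE CT, and the other macrophage markers overlapped between the labels. The source of these differences was not tested. The 12 fibroblast markers summed to 849 CPM in WT CT number 2 and 713 CPM in WT DMXAA number 2, against 58.4 to 106 CPM in the other 6, so both WT libraries numbered 2 stood apart. Their part in the results was not tested, and values without that pair are given where they move a result. The 4 BMDM libraries numbered 3 summed to 42.8 to 89.6 CPM over the macrophage markers and were left out of the comparison.

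Tmem173 itself, the targeted gene, was measured in every library. Its level was 32.5 and 22.4 CPM in WT CT, 65.5 and 47.8 in WT DMXAA, 22.8 and 19.1 in CRE CT, and 19.5 and 21.8 in CRE DMXAA. The CRE CT libraries overlapped WT CT, while both CRE DMXAA libraries lay below both WT DMXAA libraries. Tmem173 rose with DMXAA in WT (log2 fold change 1.04 ± 0.24, adjusted p = 0.0135), had a CRE log2 fold change of -0.02 ± 0.24, and its interaction of -1.06 ± 0.33 did not pass (adjusted p = 0.14). Whole-gene counts cannot separate cells that kept the gene from transcripts that lost only the floxed part, so these levels do not check the labels.

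DMXAA moved genes by less in CRE-labelled than in WT-labelled BMDMs, and the reduced response kept its direction. Fewer genes were called in CRE in the main fit, which pools the spread of both labels. A limma voom fit with a weight per label reversed the counts, with 2380 genes called in WT and 6332 in CRE. In WT, 4531 of 11569 genes passed (39.2%), with 2134 higher (18.4%) and 2397 lower (20.7%). In CRE, 1157 passed (10%), with 842 higher (7.28%) and 315 lower (2.72%), of which 582 rose (5.03%) and 136 fell (1.18%) by at least 1 log2 unit. The interaction passed for 424 genes (3.66%), of which 264 were negative (2.28%) and 160 positive (1.38%). Treated CRE and WT cells differed at 2227 genes (19.2%), with 1071 higher (9.26%) and 1156 lower (9.99%) in CRE, and untreated cells at 5 (0.0432%), all higher in CRE. The split by direction moved with the scaling, as library totals in place of TMM gave 378 positive and 189 negative interactions and 1400 genes higher and 5449 lower in WT. Genes higher in WT by at least 1 log2 unit and called, here WT-induced, numbered 1487 (12.9%), and those lower by as much, WT-repressed, numbered 1392 (12%). The median WT-induced gene rose by 2.02 in WT and had a CRE log2 fold change of 0.99, with a median share kept of 0.526 and quartiles of 0.354 and 0.713. The median WT-repressed gene had a log2 fold change of -1.50 in WT and -0.63 in CRE, with a median share of 0.392 and quartiles of 0.23 and 0.562. The CRE log2 fold change had the sign of the WT one for 95.7% of WT-induced and 93.7% of WT-repressed genes, against 76.5% of all genes tested.

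The interaction calls fell on these classes in opposite directions. Among WT-induced genes, 255 had a called negative interaction (17.1%) and 1 a positive one, Mmp13, a collagenase of the extracellular matrix. Mmp13 stood at 68.9 and 92.1 CPM in WT CT, 320 and 293 in WT DMXAA, 63.8 and 61.5 in CRE CT, and 535 and 521 in CRE DMXAA, so both treated CRE libraries lay above both treated WT libraries (interaction 1.15 ± 0.22, adjusted p = 0.0442). Among WT-repressed genes, 123 had a called positive interaction (8.84%) and 0 a negative one by edgeR. The direction of these calls follows in part from choosing the classes by the WT response, so the counts describe how many genes moved and not which way they could move. The number of calls rests on the CRE-labelled libraries, whose biological coefficient of variation was 5.19% against 35.1% for the WT-labelled ones. It fell to between 0 and 2 when any of the 4 CRE libraries was left out, and to 0 when the spread was taken from WT libraries alone, although 1021 genes had an unadjusted p under 0.05 in that fit. Without WT CT number 1 or 2 it was 588 or 1267, and without WT DMXAA number 1 or 2 it was 217 or 1347. The CRE count of 1157 was 1914 to 1958 without any of the 4 WT libraries and 248 to 321 without any of the 4 CRE libraries.

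**Figure D1:**
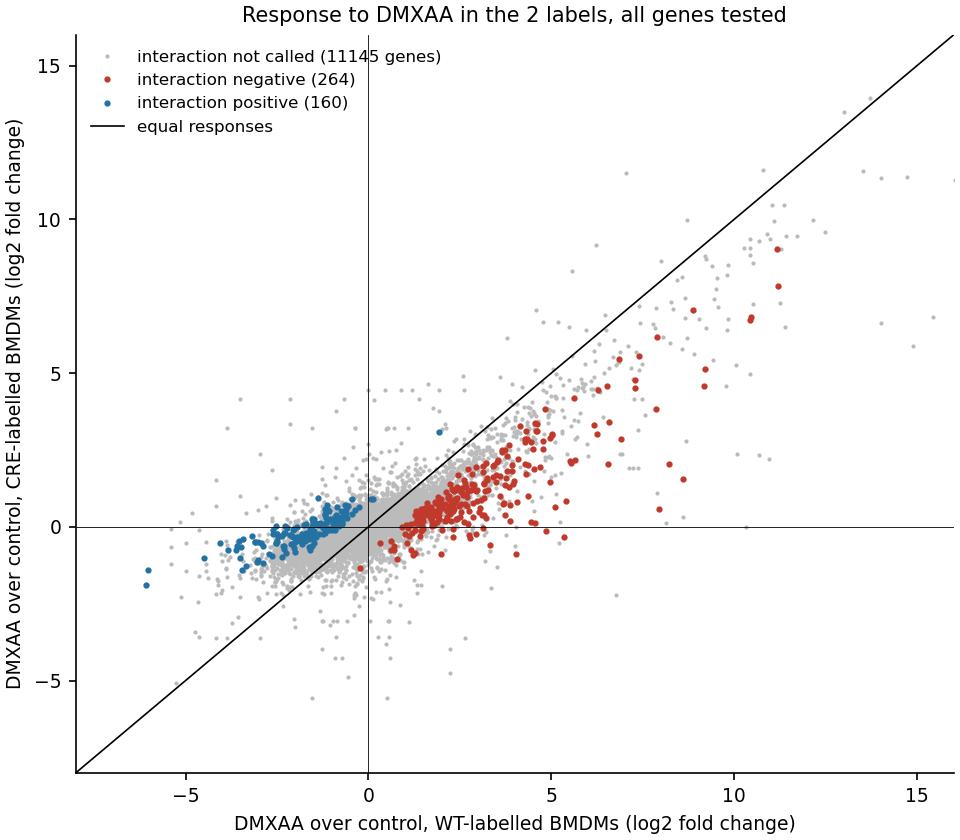
Log2 fold change of DMXAA over CT in WT-labelled BMDMs (x axis) and CRE-labelled BMDMs (y axis) for the 11569 tested genes, with 264 called negative interactions in red, 160 called positive ones in blue and equal responses on the diagonal. Most called genes lie between the diagonal and the horizontal axis, folds of genes near 0 counts in CT depend on the prior count, and 1 gene lies outside the plotted range.

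Over 30 lists that hold 573 tested genes, 233 listed genes were WT-induced and 89 WT-repressed. By median share, the antiviral interferon-stimulated genes kept most of the lists with at least 4 WT-induced genes, followed by the PYHIN and Schlafen genes, the guanylate-binding and immunity-related GTPases, the TRIM, ubiquitin and PARP genes, and MHC class I presentation. NF-kB subunits and targets and cytosolic DNA sensing kept least. The share on the log2 scale moved with the size of the response. It was 0.471 over the 734 genes that rose by 1 to 2 log2 units in WT, 0.524 over the 463 that rose by 2 to 4, and 0.724 over the 290 that rose by 4 or more, or 0.693 where genes at 3 counts or fewer in a group are set to their bound.

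**Figure D2:**
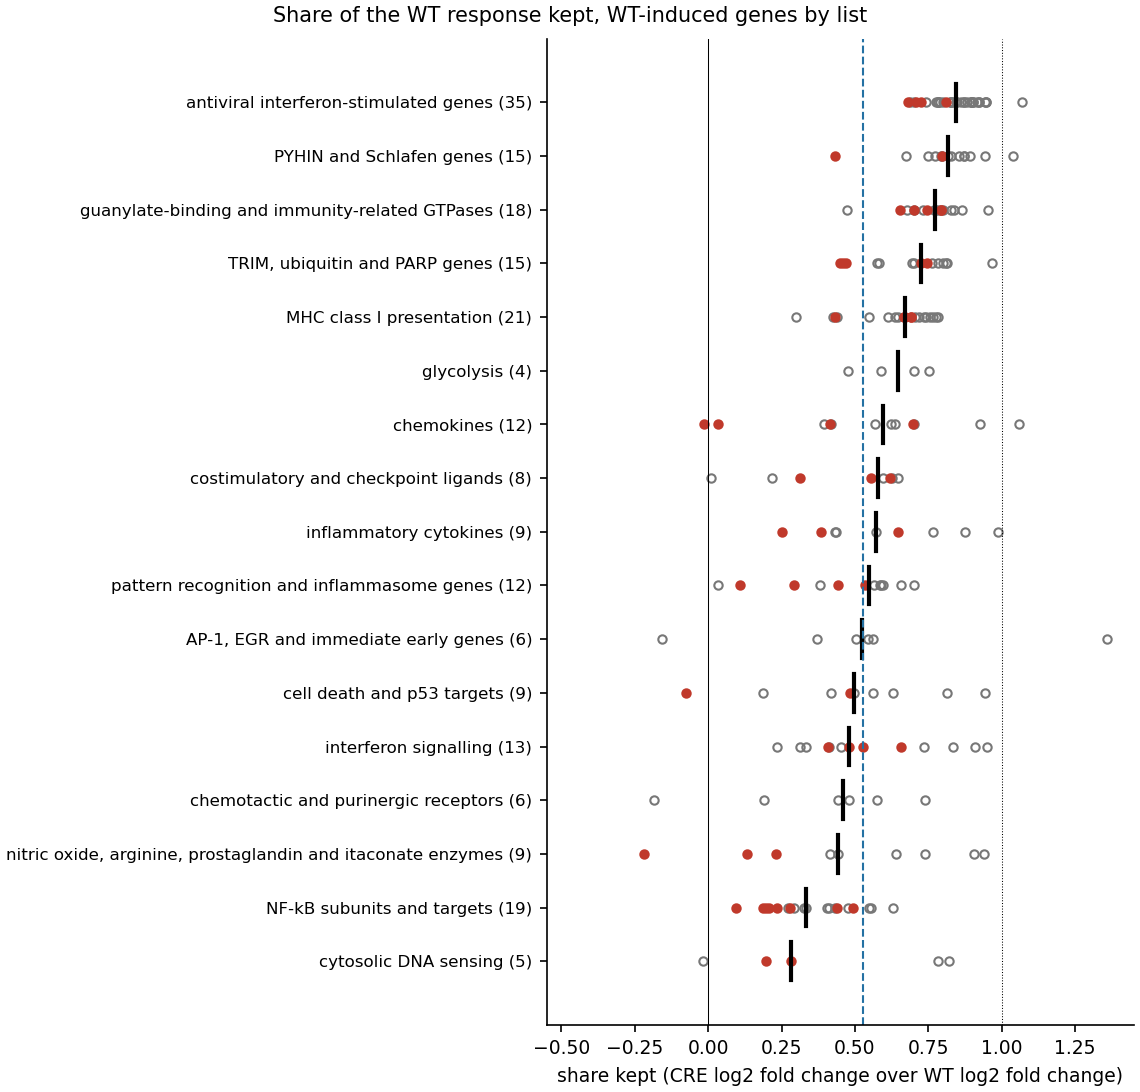
Share kept of each WT-induced gene (x axis, CRE log2 fold change over WT log2 fold change, values clipped at -0.5 and 1.4) by list (y axis, number of genes in brackets), for lists with at least 4 such genes. Filled red points are called interactions, black bars are list medians (0.844 at the top, 0.283 at the bottom) and the dashed line is the median of 0.526 over all WT-induced genes.

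All 35 antiviral interferon-stimulated genes were called higher in WT and all 35 also in CRE, against 18.4% and 7.28% of all genes. Their median log2 fold change was 6.08 in WT and 4.75 in CRE, with a median share of 0.844 and a range from 0.681 for Parp9 to 1.07 for Ifitm3. Of the 35, 4 had a called interaction, near the 17.1% of all WT-induced genes with a negative one. That 17.1% is the share to set beside the counts of the other induced lists. Isg15, a ubiquitin-like modifier, stood at 3.16 and 10 CPM in WT CT, 2535 and 2531 in WT DMXAA, 2.54 and 3.49 in CRE CT, and 799 and 892 in CRE DMXAA. The treated groups did not overlap, yet the responses did, since WT CT number 2 was the highest untreated library (interaction -0.46 ± 0.65, adjusted p = 0.764). Ifit1, which binds viral RNA lacking normal caps, rose by 10.44 ± 0.55 in WT and 8.85 ± 0.52 in CRE, an interaction of -1.58 ± 0.59 (adjusted p = 0.194). Mx1, an antiviral GTPase, kept 0.896 of its response, and Rsad2, the radical enzyme viperin, kept 0.829. A large share on this scale still left lower levels, as treated CRE libraries were below treated WT ones by a list median of 1.16 log2 units, with 27 of the 35 genes called lower (9.99% of all genes).

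Dhx58, Oas1a and Ifih1 show the range inside the list. Dhx58, which encodes the RNA sensor LGP2, was at 12.4 and 16.4 CPM in WT CT and 414 and 424 in WT DMXAA, against 11.1 and 12.3 and then 239 and 251 in CRE. Its interaction of -0.47 ± 0.22 had a 95% interval within 1 log2 unit of 0 (adjusted p = 0.292). Oas1a, which makes the second messenger that activates RNase L, was at 31.7 and 38.3 CPM in WT CT and 765 and 573 in WT DMXAA, against 32.3 and 33.3 and then 472 and 510 in CRE, a share of 0.917. Ifih1, the RNA sensor MDA5, was at 22 and 14.8 CPM in WT CT and 1726 and 1120 in WT DMXAA, against 22.1 and 19.7 and then 463 and 441 in CRE. Its treated groups were further apart than those of the other pair, and its interaction of -1.84 ± 0.36 was called (adjusted p = 0.0477).

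The neighbouring interferon lists were alike in direction. The PYHIN and Schlafen genes, which include cytosolic DNA sensors and regulators of myeloid growth, rose by a median of 5.89 in WT and 4.54 in CRE over 15 genes, a share of 0.818, with 2 called interactions, near the 17.1% of all WT-induced genes. These were Aim2, the DNA sensor of an inflammasome (-1.62 ± 0.23, adjusted p = 0.0222), and Slfn5 (-0.99 ± 0.17, adjusted p = 0.0355). The 18 guanylate-binding and immunity-related GTPases, which attack pathogen-containing vacuoles, kept a median share of 0.774. With the 4 members at 3 counts or fewer set to their bound, their medians were 8.09 in WT and 5.72 in CRE. Irgm1, a regulator of this family, was at 28.8 and 34.5 CPM in WT CT, 1516 and 1571 in WT DMXAA, 31.4 and 36.0 in CRE CT, and 622 and 608 in CRE DMXAA. Its libraries agreed closely within each group, and its interaction was -1.42 ± 0.19 (adjusted p = 0.0207). Gbp4 had 0 counts in all 4 CT libraries and reached 226 and 142 CPM in WT DMXAA and 19.3 and 16.6 in CRE DMXAA, a treated CRE minus WT difference of -3.36 ± 0.28 (adjusted p = 0.00389).

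The 15 TRIM, ubiquitin and PARP genes had shares from 0.45 to 0.967. Rnf213, a giant ubiquitin ligase, had the highest share in this list at 0.967. It was at 55.5 and 71.8 CPM in WT CT, 2682 and 1781 in WT DMXAA, 44.0 and 42.4 in CRE CT, and 1443 and 1246 in CRE DMXAA, and its 4 WT and 4 CRE responses overlapped (interaction -0.17 ± 0.32, adjusted p = 0.827). Trim26 had the lowest share at 0.45 (interaction -1.19 ± 0.20, adjusted p = 0.0311), close to Trim21, the cytosolic antibody receptor, at 0.461. Trim21 was at 16.9 and 12.1 CPM in WT CT, 355 and 237 in WT DMXAA, 18.8 and 18 in CRE CT, and 77.8 and 70.4 in CRE DMXAA, with no overlap of the treated groups (interaction -2.34 ± 0.33, adjusted p = 0.0218).

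The genes of interferon signalling were split. Irf7, which amplifies interferon production, kept 0.951 of its response, from 6.03 and 9.10 CPM in WT CT to 3015 and 2199 in WT DMXAA, and from 5.03 and 5.78 in CRE CT to 1367 and 1440 in CRE DMXAA (interaction -0.41 ± 0.33, adjusted p = 0.561). Its treated CRE libraries were below the treated WT ones by less than 1 log2 unit. Irf1, an early transcription factor of the interferon response, kept less, with 23 and 28.2 CPM in WT CT, 677 and 725 in WT DMXAA, 29.7 and 26.9 in CRE CT, and 155 and 171 in CRE DMXAA (interaction -2.25 ± 0.20, adjusted p = 0.0105). Socs1, a feedback inhibitor of JAK kinases, had an interaction of -3.28 ± 0.70 that did not pass (adjusted p = 0.0568). Ifnb1, interferon beta itself, had 0 counts in all 4 CT libraries and was at 1.66 and 13.1 CPM in WT DMXAA and 0 and 0.0579 CPM in CRE DMXAA. Over the 13 WT-induced genes of this list the median share was 0.48, and 4 interactions were called.

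**Figure D3:**
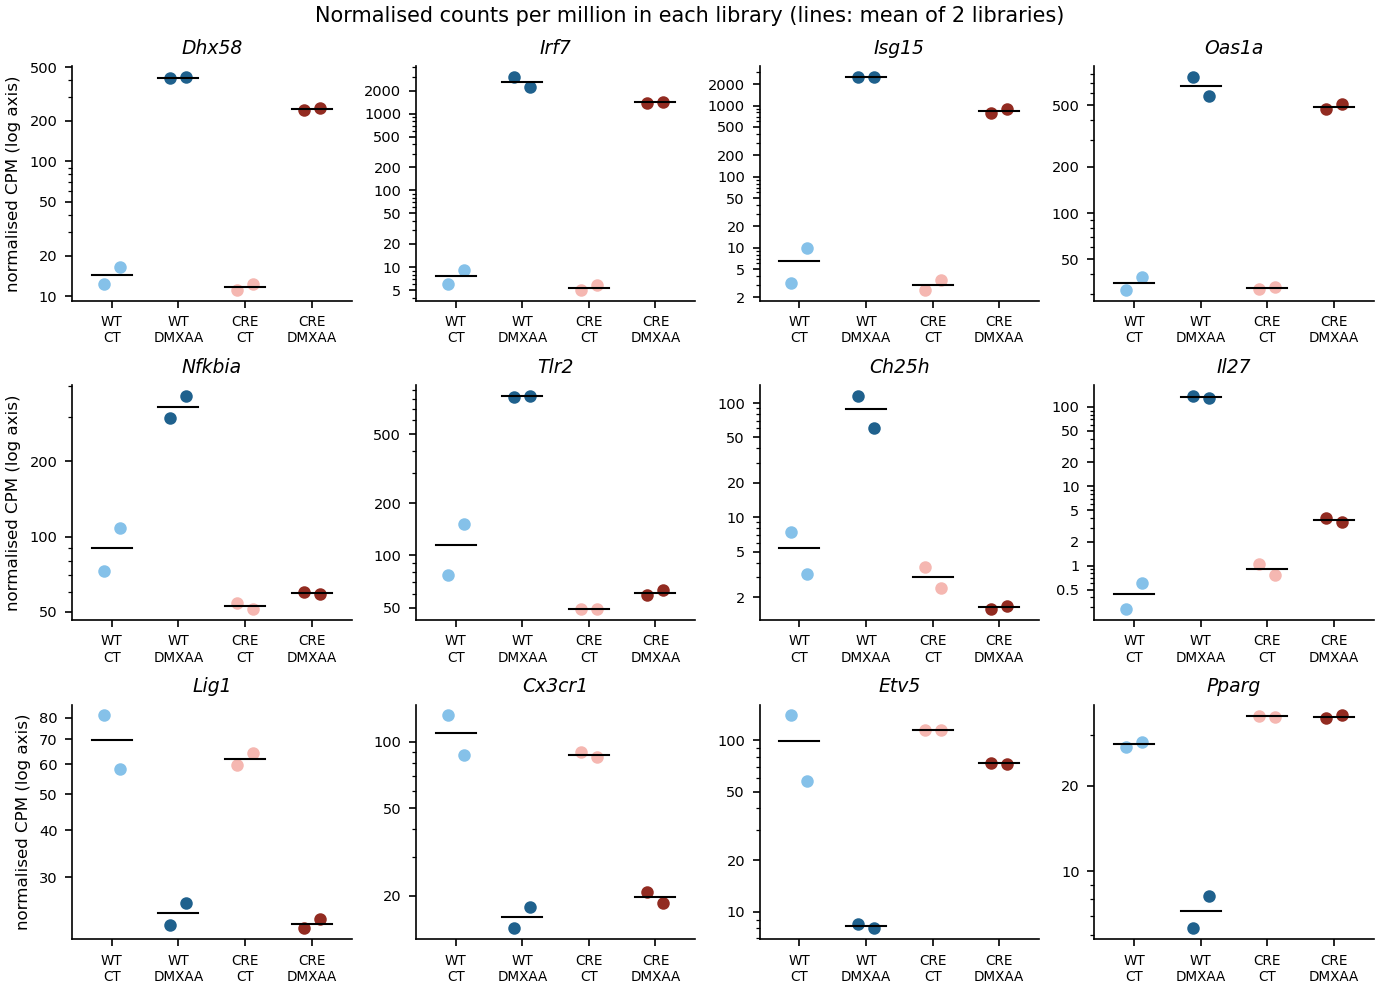
Normalised CPM (log axis) of 12 genes in each of the 8 libraries, 2 points per group with their mean as a line. Dhx58, Irf7, Isg15 and Oas1a rise in both labels, Nfkbia, Tlr2, Ch25h and Il27 rise mainly in WT, Lig1 and Cx3cr1 fall in both, and the treated CRE libraries of Etv5 and Pparg (73.7 and 73.1 CPM, and 34.5 and 35.3 CPM) lie far above the treated WT libraries.

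NF-kB subunits and targets had one of the lowest median shares among the induced lists. Of 25 tested members, 19 were WT-induced and 3 of these were called higher in CRE, where 48.9% of all WT-induced genes were. The 19 rose by a median of 1.85 in WT and had a CRE median of 0.57, a median share of 0.333, with 8 called interactions. Nfkbia, the inhibitor that NF-kB induces to end its own activity, had the lowest share in the list at 0.0932. It stood at 72.8 and 108 CPM in WT CT, 297 and 364 in WT DMXAA, 54.1 and 51.3 in CRE CT, and 60.2 and 58.7 in CRE DMXAA. Treated CRE libraries lay within 10 CPM of untreated ones and below even the untreated WT libraries, and the interaction was -1.69 ± 0.29 (adjusted p = 0.0342). Nfkb1, which encodes the p105 precursor of p50, had an interaction of -1.24 ± 0.21 (adjusted p = 0.034), Tnfaip3, the deubiquitinating inhibitor A20, one of -1.05 ± 0.17 (adjusted p = 0.0306), and Icam1, an adhesion molecule, one of -3.25 ± 0.45 (adjusted p = 0.0208). Relb kept most, at 0.63 (interaction -0.71 ± 0.49, adjusted p = 0.484). In untreated cells this list was already lower in CRE than in WT by a median of 0.40 log2 units, with 0 genes called there by edgeR, and the gap in treated cells was 1.60.

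The antiviral list and the NF-kB list lost a similar number of log2 units, with median interactions of -1.10 and -1.21 over their WT-induced members. The WT responses were of different size, with medians of 6.08 and 1.85. Against genes of like WT response, the antiviral median of 0.844 stands beside 0.724 for all genes that rose by 4 or more, and the NF-kB median of 0.333 beside 0.471 for those that rose by 1 to 2. The antiviral share was above the NF-kB share in all 26 other settings, with ranges of 0.788 to 0.891 and 0.269 to 0.41. MHC class I presentation also stayed above NF-kB in all 26, at 0.647 to 0.707.

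Cytosolic DNA sensing held 5 WT-induced genes, Tmem173 among them, with a median share of 0.283. Tbk1, the kinase that STING recruits, was at 94.9 and 98.6 CPM in WT CT, 318 and 280 in WT DMXAA, 104 and 105 in CRE CT, and 144 and 143 in CRE DMXAA (interaction -1.16 ± 0.16, adjusted p = 0.0208). Ikbke, its relative IKK-epsilon, was at 47.7 and 42.5, 201 and 141, 34.9 and 35.9, and 48.8 and 43.2 CPM in the same order (interaction -1.54 ± 0.26, adjusted p = 0.0352). Both kinases thus had higher CPM in treated than in untreated CRE libraries, by less than in WT. Of the 5 WT-induced genes of this list, 1 was called higher in CRE, where 48.9% of all WT-induced genes were. Mb21d1, which encodes the DNA sensor cGAS, kept 0.822, with 24.4 and 11.1 CPM in WT CT, 43.1 and 41.5 in WT DMXAA, 12.8 and 14.8 in CRE CT, and 28.0 and 28.3 in CRE DMXAA.

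Several secreted factors lost most of their rise. Il27, the p28 subunit of interleukin-27 (chr7:126589010-126594941, minus strand, GRCm38), was at 0.283 and 0.607 CPM in WT CT and 137 and 131 in WT DMXAA. In CRE it was at 1.06 and 0.765 CPM in CT and only 3.98 and 3.59 with DMXAA, an interaction of -6.16 ± 0.42 (adjusted p = 0.00408), and the treated groups did not overlap. Il15, a cytokine for natural killer and memory T cells, rose from 4.71 and 5.41 to 257 and 247 CPM in WT and from 7.94 and 6.93 to 32.8 and 34.5 in CRE (-3.46 ± 0.19, adjusted p = 0.00408). Its presenting receptor Il15ra rose from 2.07 and 2.33 to 224 and 187 CPM in WT and from 2.33 and 1.58 to 7.62 and 8.51 in CRE (-4.49 ± 0.30, adjusted p = 0.00408). Tnfsf10, the death ligand TRAIL, had an interaction of -3.70 ± 0.69 (adjusted p = 0.0422). Tnf, at 36.3 and 62.2 CPM in WT CT, 244 and 378 in WT DMXAA, 24.9 and 23.2 in CRE CT and 53.4 and 53.4 in CRE DMXAA, had an interaction of -1.51 ± 0.42 that did not pass (adjusted p = 0.106). Il6 was at 11.4 and 12.2 CPM in WT DMXAA and 0 and 0.232 in CRE DMXAA, with 0 to 0.14 in CT.

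Chemokine shares ranged from below 0 to above 1. Ccl3, an inflammatory chemokine, was at 47.4 and 90.9 CPM in WT CT, 426 and 481 in WT DMXAA, 32.3 and 34.3 in CRE CT, and 36.2 and 34.8 in CRE DMXAA, a share of 0.0342 (interaction -2.62 ± 0.40, adjusted p = 0.0268). Ccl4, from the same gene cluster, rose from 19.6 and 21.4 to 461 and 488 CPM in WT and from 9.31 and 9.27 to 32.9 and 35.8 in CRE (-2.64 ± 0.17, adjusted p = 0.00408). Ccl22 had the lowest share, -0.0152 (-3.19 ± 0.58, adjusted p = 0.0401). Cxcl10, the interferon-inducible ligand of CXCR3, kept 0.698 on the log2 scale, from 1.74 and 4.57 to 8220 and 6651 CPM in WT and from 0.741 and 0.574 to 151 and 148 in CRE (-3.38 ± 0.66, adjusted p = 0.0465). Cxcl9, another CXCR3 ligand, had 0 counts in every CT library and was at 454 and 461 CPM in WT DMXAA and 16 and 17.8 in CRE DMXAA, a difference of -4.76 ± 0.15 (adjusted p = 0.00106).

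The median share was 0.571 over 9 WT-induced cytokines and 0.596 over 12 chemokines, or 0.432 and 0.499 with members at 3 counts or fewer set to their bound. Without WT number 2 in both CT and DMXAA the medians were 0.431 and 0.494. That untreated library was high for several of these genes. Il1rn, the interleukin-1 receptor antagonist, was at 66.8 and 567 CPM in WT CT, and Acod1, which makes itaconate, at 1.08 and 53.3. Acod1 then reached 6306 and 6246 CPM in WT DMXAA and 209 and 211 in CRE DMXAA from 1.91 and 1.15 in CRE CT. Its share of 0.905 thus stands beside a treated difference of -4.90 ± 1.36 (adjusted p = 0.0487). Untreated CRE cells were lower than untreated WT cells by a median of 1.08 log2 units over the cytokines and 1.14 over the chemokines, with 0 genes called by edgeR.

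Among enzymes of nitric oxide, arginine, prostaglandin and itaconate metabolism, 9 were WT-induced with a median share of 0.442 and 3 called interactions. Ch25h, which makes 25-hydroxycholesterol, had the lowest share at -0.22. It was at 7.50 and 3.17 CPM in WT CT, 115 and 60.9 in WT DMXAA, 3.65 and 2.39 in CRE CT, and 1.57 and 1.68 in CRE DMXAA, so that both treated CRE libraries were below all untreated ones (interaction -4.93 ± 0.72, adjusted p = 0.0224). Nos2, the inducible nitric oxide synthase, had 0 counts in all CT libraries and was at 333 and 271 CPM in WT DMXAA but 1.01 and 0.521 in CRE DMXAA, a treated difference of -8.61 ± 0.35 (adjusted p = 0.00111).

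Surface receptors and presentation genes lay between these ends. All 21 MHC class I presentation genes rose in WT and 17 in CRE (18.4% and 7.28% of all genes), with medians of 3.46 and 2.35, a median share of 0.672 and 6 called interactions (17.1% of WT-induced genes). H2-K1, a classical class I heavy chain, was at 698 and 811 CPM in WT CT, 2971 and 2617 in WT DMXAA, 753 and 793 in CRE CT, and 1311 and 1410 in CRE DMXAA (-1.07 ± 0.19, adjusted p = 0.0359). The class I genes are near-identical in part, so counts may be split among them. Psmb8, an immunoproteasome subunit, had an interaction of -0.85 ± 0.15 (adjusted p = 0.0392). Cd40, the costimulatory receptor, rose from 3.21 and 8.12 to 915 and 868 CPM in WT and from 3.39 and 3.63 to 79.1 and 82.3 in CRE (-2.78 ± 0.52, adjusted p = 0.0422). Cd274, which encodes PD-L1, kept 0.628 (-1.79 ± 0.45, adjusted p = 0.0885). Tlr2, the receptor for bacterial lipopeptides, was at 77.1 and 152 CPM in WT CT, 820 and 828 in WT DMXAA, 49.4 and 49.1 in CRE CT, and 59.4 and 63.0 in CRE DMXAA, a share of 0.11 (-2.53 ± 0.41, adjusted p = 0.0298). Fcgr4, an activating Fc receptor, kept 0.682 (-1.16 ± 0.16, adjusted p = 0.0218).

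Of the 9 tested MHC class II presentation genes, 8 had a log2 fold change above 0 in WT and 3 in CRE, with 6 called higher in WT (18.4% of all genes) and 0 called higher in CRE by edgeR (7.28% of all genes, near which 0 of 9 lies). Its master regulator Ciita was at 0.141 and 0.327 CPM in WT CT, 10.7 and 9.64 in WT DMXAA, 0.529 and 0.669 in CRE CT, and 1.34 and 0.81 in CRE DMXAA (-4.56 ± 0.64, adjusted p = 0.0218). H2-Ab1, a class II beta chain, was at 6.93 and 11.2, 19.6 and 20.7, 23.6 and 25.6, and 17.4 and 19.2 CPM in the same order (-1.58 ± 0.33, adjusted p = 0.0522). Both untreated CRE libraries were above every treated WT library, and the list was higher in untreated CRE than WT cells by a median of 1.16 log2 units, with 0 of 9 genes called by edgeR. On CPM without TMM scaling, the 10 dendritic cell markers summed to 498 and 499 CPM in CRE CT and 244 and 250 in WT CT. Nearly all of it was Itgax, at 497 and 498 against 243 and 244. Xcr1 went the other way, at 0.059 and 0.319 CPM in CRE CT against 0.44 and 4.92 in WT CT. Zbtb46 overlapped between the labels, and Flt3 and Ccl17 were at or below 0.106 CPM in these libraries. The part of these marker differences in the class II values was not tested.

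Cell death genes and other single genes gave both extremes. Fas, the death receptor, was at 1.89 and 4.29 CPM in WT CT, 26.1 and 21.1 in WT DMXAA, 2.86 and 1.67 in CRE CT, and 1.90 and 1.97 in CRE DMXAA (share -0.076, interaction -3.15 ± 0.62, adjusted p = 0.0469). Nlrp3, the inflammasome sensor, was at 39.3 and 59.3, 115 and 143, 18.8 and 21.1, and 19.9 and 21.4 CPM in the same order, and its interaction of -1.34 ± 0.31 did not pass (adjusted p = 0.0691). Mcl1, a survival factor of the BCL2 family, kept 0.942 (-0.08 ± 0.29, adjusted p = 0.925), with overlapping responses. Acsl1, an acyl-CoA synthetase, rose from 62.6 and 58.5 to 1046 and 822 CPM in WT and from 53.5 and 53.9 to 145 and 136 in CRE (-2.56 ± 0.20, adjusted p = 0.008).

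Among called genes whose mean FPKM reached 5 in some group and whose responses did not overlap, the 8 most negative interactions were those of Tnfaip8l3, Il27, Ch25h, Calhm6, Il15ra, Armcx6, Hopx and Cd69. Calhm6, a channel protein, rose from 0.943 and 0.327 to 420 and 319 CPM in WT and from 0.688 and 0.621 to 16.9 and 14.8 in CRE (-4.59 ± 0.58, adjusted p = 0.0192). Hopx, a homeodomain-only protein, rose from 1.51 and 1.63 to 31.5 and 37.4 CPM in WT and stayed between 1.74 and 2.72 in the 4 CRE libraries (-4.30 ± 0.38, adjusted p = 0.0105). Armcx6 rose from 0.424 and 0.467 to 14.9 and 16.3 CPM in WT and was at 0.476 and 0.621, then 0.504 and 1.22, in CRE (-4.47 ± 0.62, adjusted p = 0.0218). Cd69, an early activation marker, rose from 1.27 and 1.59 to 1127 and 581 CPM in WT and from 0.741 and 1 to 30.6 and 31.0 in CRE (-4.09 ± 0.56, adjusted p = 0.0208). Tnfaip8l3 had 1 count in each WT CT library, and at 29.6 and 12.2 CPM in WT DMXAA and 1.23 and 1.16 in CRE DMXAA differed by -4.12 ± 0.60 in treated cells (adjusted p = 0.00615). In all, 4545 of all tested genes (39.3%) had no overlap between their 4 WT and 4 CRE responses, so absence of overlap is common here.

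At the other end, 100 WT-induced genes with an FPKM of at least 5 had a 95% interval of the interaction within 1 log2 unit of 0. Those with the largest WT response included Rnf213, Dhx58, Oas1a, Lgals9, Gm6548, Rnf34 and Ly6e. Lgals9, a galectin, rose from 84.1 and 75.5 to 883 and 730 CPM in WT and from 81.8 and 89.3 to 636 and 644 in CRE (share 0.87). Ly6e, an interferon-induced surface protein that limits virus entry, rose from 235 and 247 to 1928 and 1552 CPM in WT and from 209 and 211 to 1322 and 1351 in CRE (share 0.935). Gm6548 is a pseudogene that may share reads with its parent, so its share of 0.862 is uncertain.

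Promoters are shown for key induced genes with the lowest and the highest share, to set the letters of the extremes side by side. The choice was made among genes matched by symbol in the RefSeq table, without the chromosome that carries Tmem173. Each runs 5′ to 3′ over 300 bases, 250 before and 50 after the start, in GRCm38.p6, with matches in capitals to GAAANNGAA (the interferon-stimulated response element half-site pair), GGANNTTCC (NF-kB) or TGANTCA (AP-1) on either strand. Ch25h (chr19:34475099-34475398, minus strand), Fas (chr19:34290409-34290708, plus strand) and Nlrp3 (chr11:59541319-59541618, plus strand) had the lowest shares among the genes that could be chosen. Tmem173, at -0.0167, was left out with its chromosome. Irf7 (chr7:141266375-141266674, minus strand), Rnf213 (chr11:119389849-119390148, plus strand) and Dusp1 (chr17:26508423-26508722, minus strand) had the highest. The Rnf213 window lies 3001 bases from the 5′ end of the gene in the deposited table.
Ch25h: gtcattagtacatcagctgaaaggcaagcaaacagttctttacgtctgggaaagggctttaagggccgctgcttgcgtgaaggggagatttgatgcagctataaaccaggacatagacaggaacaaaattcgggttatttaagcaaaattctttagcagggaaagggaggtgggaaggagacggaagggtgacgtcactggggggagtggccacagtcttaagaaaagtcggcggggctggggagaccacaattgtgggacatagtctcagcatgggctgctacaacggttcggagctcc
Fas: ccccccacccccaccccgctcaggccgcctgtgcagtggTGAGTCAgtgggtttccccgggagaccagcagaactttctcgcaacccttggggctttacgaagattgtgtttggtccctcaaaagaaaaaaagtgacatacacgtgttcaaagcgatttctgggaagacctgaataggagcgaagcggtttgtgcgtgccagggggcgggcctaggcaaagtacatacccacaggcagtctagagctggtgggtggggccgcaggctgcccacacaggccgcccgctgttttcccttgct
Nlrp3: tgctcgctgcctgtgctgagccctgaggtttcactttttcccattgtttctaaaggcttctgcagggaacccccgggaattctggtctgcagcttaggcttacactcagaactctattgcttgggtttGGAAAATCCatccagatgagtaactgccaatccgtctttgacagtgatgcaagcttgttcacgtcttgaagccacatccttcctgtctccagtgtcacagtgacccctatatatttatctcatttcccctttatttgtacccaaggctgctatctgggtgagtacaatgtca
Irf7: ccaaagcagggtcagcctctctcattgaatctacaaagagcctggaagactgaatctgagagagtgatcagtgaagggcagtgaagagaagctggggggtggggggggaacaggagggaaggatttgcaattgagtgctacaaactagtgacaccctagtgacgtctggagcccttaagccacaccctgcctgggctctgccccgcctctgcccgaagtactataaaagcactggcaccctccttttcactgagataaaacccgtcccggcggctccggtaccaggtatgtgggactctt
Rnf213: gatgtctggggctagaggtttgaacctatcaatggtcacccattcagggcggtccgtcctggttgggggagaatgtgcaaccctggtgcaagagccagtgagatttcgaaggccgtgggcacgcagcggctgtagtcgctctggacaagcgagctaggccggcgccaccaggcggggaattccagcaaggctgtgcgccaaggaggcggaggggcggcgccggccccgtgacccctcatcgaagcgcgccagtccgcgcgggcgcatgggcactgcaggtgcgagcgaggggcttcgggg
Dusp1: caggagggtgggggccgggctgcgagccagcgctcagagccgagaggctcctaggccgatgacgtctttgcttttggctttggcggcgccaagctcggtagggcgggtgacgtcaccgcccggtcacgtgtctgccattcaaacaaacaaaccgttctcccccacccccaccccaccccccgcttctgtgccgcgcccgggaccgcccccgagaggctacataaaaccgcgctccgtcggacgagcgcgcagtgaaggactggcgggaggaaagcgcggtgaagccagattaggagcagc
Fas held 1 AP-1 match at bases 40 to 46 and Nlrp3 held 1 NF-kB match at bases 129 to 137, and the other 4 windows held none of these letters. Other spellings of these sites were not searched, so a window without a match may still hold such a site. Dusp1, a phosphatase that limits MAP kinases, ranked highest through a share of 1.36 with overlapping responses (44.5 and 110 CPM in WT CT, 215 and 176 in WT DMXAA, 38.7 and 39.3 in CRE CT, 137 and 139 in CRE DMXAA).

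Over groups of genes, the half-site pair differed more in frequency between induced and repressed genes than between lost and kept ones. It was in 37 of 196 promoters (18.9%) of WT-induced genes with a called negative interaction and in 11 of 44 (25%) of those that kept at least 0.75 of the response with the interval within 1 log2 unit. It was in 15.3% of all WT-induced and 5.2% of all WT-repressed genes, against 7.73% of all genes tested and 8.56% of the 27025 promoters in the table. The NF-kB letters were in 6.63% of the lost and 9.09% of the kept group, against 6.83% of WT-induced genes, 4.86% of all genes tested and 4.28% of the table. The AP-1 letters were in 7.14% and 4.55%, against 7.82% of WT-induced genes, 4.96% of all genes tested and 7.89% of the table. With 44 promoters in the kept group, each motif rests on 2 to 11 matches, and these shares are a description.

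Other features of the same groups were set side by side. The 255 lost genes rose by a median of 2.65 in WT and 0.80 in CRE, and the 57 kept genes by 1.32 and 1.16, so the groups differ in the size of the WT response. Median untreated FPKM in WT was 5.59 in the lost group and 8.45 in the kept group, and gene length was 4449 and 4440 bases. In WT-labelled bone marrow-derived dendritic cells, libraries that the choice of the groups did not use, the log2 fold change of DMXAA was above 0 for 247 of 253 measured lost genes and 54 of 56 kept genes, with medians of 1.85 and 1.06. It was above 0 for 1397 of 1430 WT-induced genes, with a median of 1.42, and for 5476 of 10865 of all genes tested, so both groups were near the share of WT-induced genes.

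The median share was 0.392 over WT-repressed genes against 0.526 over WT-induced genes, a difference that was not tested. The DNA replication genes, which copy the genome in S phase, had the highest median share among lists with at least 10 WT-repressed genes. Mitosis genes were above them at an FPKM of at least 5 (0.553 against 0.552) and without WT CT number 2 (0.558 against 0.549), and cholesterol synthesis genes without WT DMXAA number 2 (0.467 against 0.461) and with all 12 libraries (0.65 against 0.604). The 19 repressed DNA replication genes fell by a median of 2.06 in WT and had a CRE median of -1.22, a share of 0.585. Of these, 8 were called lower in CRE (13.9% of all WT-repressed genes) and 0 had a called interaction by edgeR (8.84% of all WT-repressed genes had a positive one). Lig1, the replicative DNA ligase, had the highest share at 0.95. It was at 81.2 and 58.3 CPM in WT CT, 22.4 and 25.6 in WT DMXAA, 59.7 and 64.2 in CRE CT, and 21.9 and 23.2 in CRE DMXAA, with overlapping treated groups (interaction 0.08 ± 0.25, adjusted p = 0.912). Mcm2, a subunit of the replicative helicase, was at 121 and 72.7 CPM in WT CT, 7.82 and 19.8 in WT DMXAA, 79.1 and 79.2 in CRE CT, and 31.1 and 33.8 in CRE DMXAA. Its treated CRE libraries lay above the treated WT ones, and its interaction of 1.52 ± 0.59 did not pass (adjusted p = 0.211).

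The 13 repressed mitosis genes had medians of -2.06 in WT and -1.12 in CRE and a share of 0.525. Mki67, the proliferation marker Ki-67, was at 112 and 121 CPM in WT CT, 18.2 and 32.5 in WT DMXAA, 59.5 and 58.7 in CRE CT, and 26.7 and 29.5 in CRE DMXAA. Both untreated CRE libraries were below both untreated WT libraries, and the treated groups overlapped. The 11 repressed ribosome biogenesis genes, which process ribosomal RNA, had medians of -1.90 and -0.82 and a share of 0.403. None of these 3 lists had a called interaction by edgeR, where 8.84% of all WT-repressed genes had a positive one. Median interactions over the repressed members were 0.90 for DNA replication, 0.99 for mitosis and 1.21 for ribosome biogenesis. The shares of the 3 lists moved with WT number 1 or 2. Without WT number 1 they were 0.805, 0.752 and 0.527, and without WT number 2 they were 0.417, 0.399 and 0.3.

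Cholesterol synthesis genes, driven by SREBP2, fell by a median of 1.79 in WT over 13 repressed members, had a CRE median of -0.87 and kept 0.469, with 5 called lower in CRE (13.9% of WT-repressed genes) and 0 interactions called by edgeR (8.84%, near which 0 of 13 lies). Sqle, squalene epoxidase, was at 133 and 92.6 CPM in WT CT, 16.4 and 25 in WT DMXAA, 135 and 129 in CRE CT, and 72.8 and 70.1 in CRE DMXAA (interaction 1.55 ± 0.34, adjusted p = 0.0602). Cyp51, lanosterol demethylase, was at 132 and 92.5, 31.2 and 33.6, 139 and 129, and 75.9 and 71.2 CPM in the same order (0.93 ± 0.25, adjusted p = 0.106). For both, treated CRE levels lay between the treated WT and the untreated levels.

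**Figure D4:**
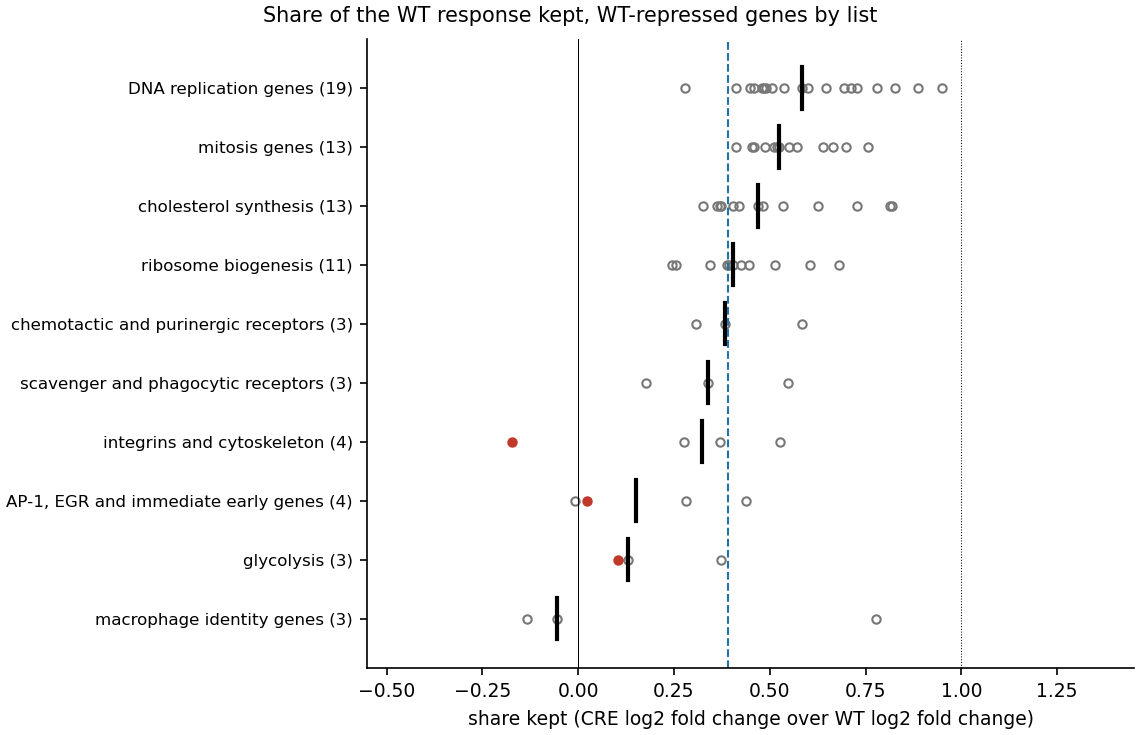
Share kept of each WT-repressed gene (x axis, CRE log2 fold change over WT log2 fold change) by list (y axis, number of genes in brackets), for lists with at least 3 such genes, with called interactions in red, list medians as black bars and the median of 0.392 over all WT-repressed genes dashed. DNA replication genes are at the top with a median of 0.585, and the macrophage identity genes at the bottom, with Cx3cr1 at 0.778 among them.

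Among regulators and receptors of macrophages, Pparg had a share near 0 and Cx3cr1 a high one. Pparg, a lipid-sensing nuclear receptor, was at 27.3 and 28.5 CPM in WT CT, 6.32 and 8.19 in WT DMXAA, 35.1 and 34.8 in CRE CT, and 34.5 and 35.3 in CRE DMXAA (1.94 ± 0.21, adjusted p = 0.0148). Cx3cr1, the fractalkine receptor, kept 0.778, from 132 and 86.9 to 14.2 and 17.8 CPM in WT and from 89.8 and 84.9 to 20.8 and 18.5 in CRE (0.61 ± 0.31, adjusted p = 0.336).

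Over the 4 repressed AP-1, EGR and immediate early genes the median share was 0.152. Ier2, an immediate early gene, was at 46.4 and 41.1 CPM in WT CT, 8.22 and 10.3 in WT DMXAA, 35.1 and 33.2 in CRE CT, and 32.1 and 33.9 in CRE DMXAA (2.18 ± 0.22, adjusted p = 0.0113). Jun, which fell by less than 1 log2 unit in WT, had an interaction of 1.07 ± 0.18 (adjusted p = 0.0342). Rhob, a small GTPase of endosomes, was at 297 and 301 CPM in WT CT, 82.6 and 125 in WT DMXAA, 389 and 389 in CRE CT, and 466 and 469 in CRE DMXAA (1.79 ± 0.27, adjusted p = 0.0252). Pfkl, a phosphofructokinase of glycolysis, fell in WT and had a share of 0.105 (0.96 ± 0.18, adjusted p = 0.0422). Bcl2, the survival factor, kept 0.364 (1.68 ± 0.26, adjusted p = 0.0268). Gpr183, the receptor for oxysterols derived from 25-hydroxycholesterol, was at 63.5 and 26.2, 2.29 and 2.02, 50.2 and 44.7, and 14.3 and 15.4 CPM in the same order (2.70 ± 0.57, adjusted p = 0.0541).

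Under the same FPKM minimum, the 8 most positive called interactions without overlap were those of Rab3il1, 6430548M08Rik, Etv5, Gm28875, Id1, Zdhhc14, Gcnt1 and 2510016D11Rik. Rab3il1, an exchange factor for Rab GTPases, fell from 171 and 94.1 to 5.21 and 6.43 CPM in WT and was at 167 and 169, then 82.3 and 84.7, in CRE (3.49 ± 0.40, adjusted p = 0.0154). Etv5, an ETS factor downstream of growth factor signalling, fell from 140 and 57.9 to 8.45 and 8 CPM in WT and was at 115 and 115, then 73.7 and 73.1, in CRE (2.94 ± 0.53, adjusted p = 0.0381). Id1, an inhibitor of helix-loop-helix factors, fell from 77.1 and 79.8 to 17.1 and 10.1 CPM in WT and stayed between 60.3 and 66.6 in all 4 CRE libraries (2.54 ± 0.33, adjusted p = 0.0193). Zdhhc14, a palmitoyltransferase, fell from 40.6 and 34.7 to 4.35 and 4.91 CPM in WT and was at 29.5 and 34.5, then 24.5 and 21.4, in CRE (2.54 ± 0.23, adjusted p = 0.0105). Gcnt1, a glycosyltransferase, fell from 145 and 86.2 to 21.4 and 16.3 CPM in WT and stayed between 94.5 and 105 in CRE (2.51 ± 0.36, adjusted p = 0.0224). In contrast, 42 WT-repressed genes at an FPKM of at least 5 had an interval of the interaction within 1 log2 unit of 0, led by Mctp1, a membrane protein with C2 domains (share 0.844), and Lig1.

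Since the classes were chosen by the WT response, shares were also measured on genes chosen elsewhere. Genes that rose by at least 1 log2 unit in WT number 1 kept 0.575 of the response of WT number 2, and those chosen in number 2 kept 0.472 of that of number 1, for 1800 and 1451 genes. For falls the shares were 0.516 over 1838 genes and 0.335 over 1103. Genes chosen by the response of WT-labelled dendritic cells kept 0.536 over 1193 induced and 0.42 over 807 repressed genes, beside 0.526 and 0.392 for genes chosen in these macrophages.

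**Figure D5:**
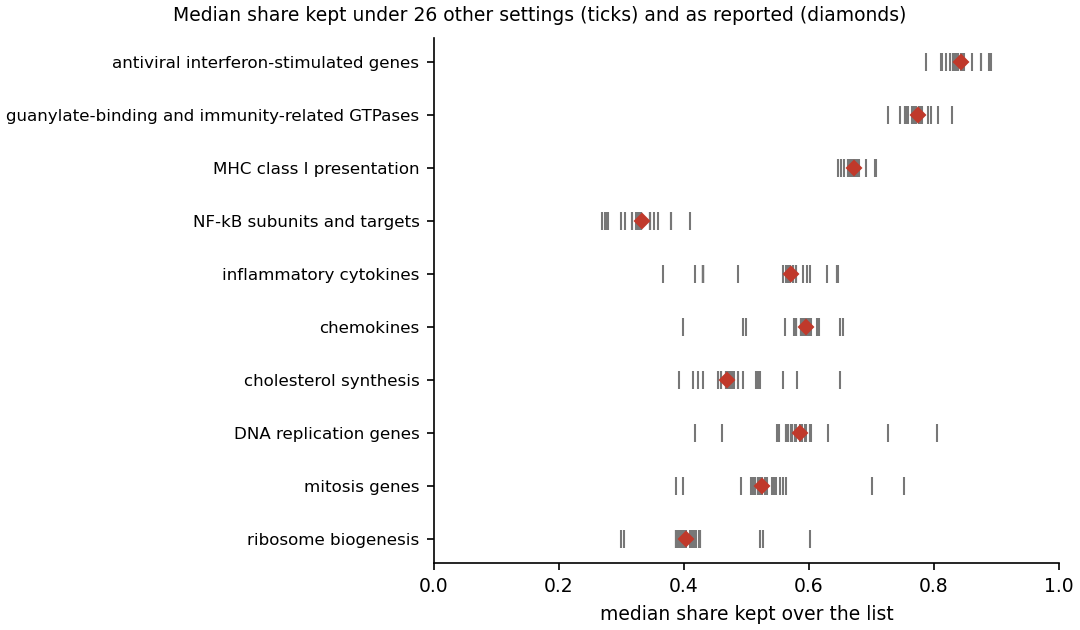
Median share kept (x axis) of 10 lists (y axis) under 26 other settings, shown as grey ticks, and as reported, shown as red diamonds, over the WT-induced members of the first 6 lists and the WT-repressed members of the last 4. The antiviral ticks (0.788 to 0.891) and the NF-kB ticks (0.269 to 0.41) do not meet, whereas those of DNA replication (0.417 to 0.805) and ribosome biogenesis (0.3 to 0.601) do, although DNA replication was above ribosome biogenesis in 26 of 26 settings.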

How the data were processed

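Polyadenylated RNA of BMDMs was sequenced by the authors after TRIzol extraction and NEBNext Ultra library preparation. The authors aligned reads with HISAT2 2.0.5 to GRCm38, counted them with featureCounts 1.5.0-p3 and deposited counts per gene and FPKM for each library. Their columns of DESeq2 comparisons hold fold changes and p-values and were not used. Of the 54532 genes in the deposited FPKM and count table, 11569 reached an FPKM of 1 in 2 or more of the 8 libraries and were tested on the deposited counts with edgeR 4.0.16 (quasi-likelihood, TMM, prior count 0.125, Benjamini-Hochberg adjustment, two-sided) in R 4.3.3, with 1 coefficient per group and contrasts for each response and for their difference. Depth was 16470157 to 18912887 counts per library. List medians use the fitted values, and medians said to be with bounds set genes at 3 counts or fewer in both libraries of a group to that bound. The scripts were tested on simulated data. Alternatives used limma 3.58.1, DESeq2 1.42.0, other scalings, filters, blocks and left-out libraries. The members and lists were chosen with earlier results of these data known. Genes are named as key members of the lists, as the 8 most negative and 8 most positive called interactions without overlap between responses at an FPKM of at least 5, as the 8 induced and 8 repressed genes with the largest WT response and an interaction interval within 1 log2 unit of 0, or as the lowest and highest share of a list. Icam1, Ier2, Mmp13 and Tbk1 fall outside this rule and were chosen after their values were seen. Promoters come from the RefSeq table of GRCm38.p6. The labels do not say how libraries of a group were replicated. Some genes that this rule selects are not reported here.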

Additional observations from a re-analysis of the deposited data

Results flagged for a closer look

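The response to DMXAA differed between CRE-labelled and WT-labelled BMDMs by the test of the interaction term itself for 424 genes, and the named genes among them are given here by their interaction on the log2 scale, without those at 3 counts or fewer in a group. The most negative values were -6.16 for Il27, -4.93 for Ch25h, -4.59 for Calhm6, -4.56 for Ciita, -4.49 for Il15ra, -4.47 for Armcx6, -4.30 for Hopx, -4.09 for Cd69 and -3.70 for Tnfsf10. Negative values of intermediate size were -3.46 for Il15, -3.38 for Cxcl10, -3.25 for Icam1, -3.19 for Ccl22, -3.15 for Fas, -2.78 for Cd40, -2.64 for Ccl4, -2.62 for Ccl3 and -2.56 for Acsl1. Smaller negative values were -2.53 for Tlr2, -2.34 for Trim21, -2.25 for Irf1, -1.84 for Ifih1, -1.69 for Nfkbia, -1.62 for Aim2, -1.54 for Ikbke, -1.46 for Parp9 and -1.42 for Irgm1. The least negative values were -1.24 for Nfkb1, -1.19 for Trim26, -1.16 for Fcgr4, -1.16 for Tbk1, -1.07 for H2-K1, -1.05 for Tnfaip3, -0.99 for Slfn5 and -0.85 for Psmb8. The most positive values were 3.49 for Rab3il1, 3.08 for 6430548M08Rik, 2.94 for Etv5, 2.63 for Gm28875, 2.54 for Id1, 2.54 for Zdhhc14, 2.51 for Gcnt1 and 2.40 for 2510016D11Rik. Smaller positive values were 2.18 for Ier2, 1.94 for Pparg, 1.79 for Rhob, 1.68 for Bcl2, 1.15 for Mmp13, 1.07 for Jun and 0.96 for Pfkl.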

How the results depend on the processing

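For 69 of the named genes, 1860 values were recomputed, of which 1264 stayed on their side of the threshold, 520 no longer passed and 76 newly passed. Among the 50 of these genes with a called interaction in the main fit, 0 values changed sign. Sign changes of the other genes were not counted. The interaction count of 424 was 275 without a filter on low values, 1195 by DESeq2, 1186 at the threshold the study used, 11 at an adjusted p under 0.01 and 0 by limma voom with the spread of WT-labelled libraries. The voom fit with that spread gave 1787 calls for the WT response and 168 for the CRE response. A voom fit with a weight per label gave 2380 and 6332. DESeq2 called 1908 genes in CRE, and an adjusted p under 0.01 left 2601 in WT and 406 in CRE. Library totals without TMM called 6849 genes in WT, gave an induced share of 0.591, moved the median of all genes by -0.59 in WT and -0.24 in CRE, and made 66.7% of interaction calls positive against 37.7%. A replicate block within genotype gave 1702 interaction and 2920 CRE calls, with WT spread 1111 and 2059, and an additive replicate block gave 450. The labels do not say that numbers mark a pair, deviations correlated by 0.683 between WT CT and WT DMXAA and by 0.036 between CRE CT and CRE DMXAA, and with 2 per group the pairing is not established. With all 12 BMDM libraries, 10 genes were called in WT and 0 in CRE or for the interaction by edgeR, with an induced share of 0.874 over those 10. The induced share was 0.64 as a slope through 0, and the repressed share 0.516 for genes chosen in WT number 1 and measured in number 2. Leaving out 1 library or 1 numbered pair gave 1732 to 7285 WT calls, 54 to 6389 CRE calls, 0 to 5334 interaction calls, induced shares of 0.463 to 0.569 and repressed shares of 0.312 to 0.438. Without WT pair 1 or 2 the interaction had 3596 or 5334 calls, where the lone WT library of each arm is assumed to vary like the CRE libraries, and without either CRE pair it had 0. With 2 libraries per group, small interactions of genes at low counts were not detectable at this depth.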

Other observations

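The called interactions of repressed genes were also set beside the dendritic cells. The 123 WT-repressed genes with a called positive interaction had medians of -1.80 in WT and -0.29 in CRE BMDMs, and in WT-labelled dendritic cells their median response was -1.25, with 6 of 115 measured genes above 0, against 61 of 1251 for all WT-repressed genes. The 35 repressed genes that kept the response had medians of -1.17 and -1.02, and -0.79 in dendritic cells. Untreated CRE and WT BMDMs differed at 5 genes (0.0432%), all higher in CRE, namely Gm3608, Hist1h2al, Rps3a2, Rps3a3 and Tpm3-rs7, several of which by their names are pseudogenes or members of multicopy families, whose counts may share reads with near-identical copies.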
